A study of Homo sapiens with 6 samples.

Results

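The 10 genes described here belong to the Notch pathway: the ligands JAG1 and JAG2, the receptors NOTCH1, NOTCH2 and NOTCH3, the effectors HES1, HEY1 and HEYL, the feedback gene NRARP, and SOX9, a transcription factor gene placed downstream of Notch in biliary cells. They were chosen by gene symbol in the platform annotation, and each of the 10 was represented by 1 probe set among 24241 genes with a symbol. The cells were HepG2, an established line from a human liver tumour with many traits of hepatocytes. They received verteporfin at 0.75 µM (3 arrays) or DMSO alone, the solvent (3 arrays), for 24 hours, and their total RNA was hybridised to Affymetrix arrays. All samples are of 1 cell line grown in RPMI medium, and the labels do not state whether the replicates were separate cultures, so the p-values measure a spread that may be technical. Verteporfin is a porphyrin photosensitiser that is also used as an inhibitor of the binding of YAP to TEAD factors; exposure to light is not given in the sources used here.

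Notch signalling passes between neighbouring cells. A ligand of the Jagged or Delta-like family on one cell binds a Notch receptor on the next, ADAM proteases and then gamma-secretase cut the receptor, and its freed intracellular part enters the nucleus, where it joins the DNA-binding protein RBPJ and Mastermind coactivators to switch on genes such as HES1, HEY1 and NRARP. In liver the pathway is known for directing progenitor cells to the bile duct fate, in which SOX9 takes part, and JAG1 and SOX9 have both been described as genes that YAP can activate in liver cells.

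The RBPJ core, TGGGAA, is the sequence through which the effectors are known to be reached, and the HES1 promoter is the textbook case. The 250 bases upstream of the gene start are shown for HES1 and HEYL, the members with matches, and for JAG1, the member with the smallest p in the comparison below. The sequences are from RefSeq on GRCh38.p14, at chr3:194135898-194136147 on the + strand for HES1, chr1:39639644-39639893 on the - strand for HEYL and chr20:10674000-10674249 on the - strand for JAG1. Each is written in the direction of its gene, and capitals mark TGGGAA or its reverse complement TTCCCA.
HES1: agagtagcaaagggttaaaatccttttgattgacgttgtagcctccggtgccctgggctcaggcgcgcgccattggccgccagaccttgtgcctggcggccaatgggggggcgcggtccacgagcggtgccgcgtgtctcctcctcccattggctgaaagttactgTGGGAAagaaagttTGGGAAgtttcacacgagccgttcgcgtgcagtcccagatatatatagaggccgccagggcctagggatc
HEYL: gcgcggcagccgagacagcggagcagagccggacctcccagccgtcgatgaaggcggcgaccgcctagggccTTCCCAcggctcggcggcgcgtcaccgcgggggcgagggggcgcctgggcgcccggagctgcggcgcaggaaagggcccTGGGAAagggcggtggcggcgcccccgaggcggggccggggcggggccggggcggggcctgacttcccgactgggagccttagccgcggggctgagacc
JAG1: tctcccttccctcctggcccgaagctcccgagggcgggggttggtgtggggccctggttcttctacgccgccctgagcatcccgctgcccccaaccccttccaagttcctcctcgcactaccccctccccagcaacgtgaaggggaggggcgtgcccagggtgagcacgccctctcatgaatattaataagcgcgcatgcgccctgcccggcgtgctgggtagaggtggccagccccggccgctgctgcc

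The HES1 window held TGGGAA on the gene's own strand at -84 and -70, counted to the first base of the match with -1 as the base before the gene start. The HEYL window held it at -99, and its complement TTCCCA at -178. A promoter was listed for 8 of the 10 members (not for HEY1 and SOX9), and the windows of the other 6 had no match on either strand. Of 27305 gene promoters of the same length, 21.1% held TGGGAA on either strand and 2.92% held it 2 or more times. The TEAD core GGAATG, or CATTCC, which can overlap TGGGAA, was found in 0 of the 8 windows and in 11.9% of all promoters. A match is a description of the letters and not a site, and a window without one tells nothing about the factor.

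The values were RMA log2 signals, with the same distribution on every array and a median of 4.83, which serves here as a yardstick for dim probe sets because detection calls were not analysed. Arrays of 1 group correlated across genes at 0.995 to 0.997, and arrays of different groups at 0.969 to 0.977. All 8 hepatocyte markers measured were above the median in both groups. With verteporfin 7 of them passed as lower (87.5%, against 14.3% of all genes tested), and SERPINA1 did not pass. The 14.3% includes dim genes, which passed less often. In a fit without genes below the median signal, 3343 of 12257 genes were called lower. The sum of their linear signals lay between 15418 and 17847 on the verteporfin arrays, against 41652 to 42526 on the DMSO arrays. Of 5 endothelial and 5 stellate cell or fibroblast markers, 0 passed, and 0 and 2 of them had an unadjusted p under 0.05. All 5 endothelial markers lay below the median, as did 3 of the stellate cell or fibroblast markers. The other 2, COL1A1 and ACTA2, lay above it in both groups. ACTA2 averaged 6.76 with verteporfin and 7.23 with DMSO (adjusted p = 0.0545, limma). The summed linear signals of the endothelial and the stellate cell or fibroblast markers were 78.3 to 86.2 and 231 to 272 on the verteporfin arrays. On the DMSO arrays they were 82.6 to 86.2 and 282 to 323. Of the 5 leukocyte markers, PTPRC, which encodes CD45, and CD3E lay at 3.44 and 3.55 with verteporfin and at 3.48 and 3.60 with DMSO, far below the median signal, while CD68 passed as higher and CD14 and LYZ as lower. The leukocyte sum of 4627 to 5885 on the verteporfin arrays, against 10888 to 10968 on the DMSO arrays, was carried by LYZ, which averaged 11.91 with verteporfin and 13.24 with DMSO.

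The comparison of verteporfin with DMSO asked how the transcripts of the pathway stood after 24 hours of the drug. JAG1 and HEY1 rose, SOX9 fell, and the other 7 members did not pass (limma, adjusted p threshold 0.05 over all 24241 genes). Of all genes tested, 28.5% passed, 14.3% higher and 14.3% lower, so 3 of 10 members (30%) is near the share of all genes. The measured signal of each of the 3 differed at least 2-fold, and 5.73% of all genes passed with a difference of that size. That share pools bright and dim genes and was not split by mean signal. For HEY1 the interval of the log2 difference reached down to 0.70, and the difference was 0.86, under 2-fold, without verteporfin replicate 3. Of the 7 members with a mean at or above the median signal, 2 passed (28.6%), against 51.9% of all such genes. Of the 3 members below it, 1 passed, against 4.59% of such genes. The median difference of the 10 members was -0.0086, beside 0.0049 for all genes tested, and their median absolute difference was 0.10, beside 0.12. Less RNA per cell and fewer cells with the transcript cannot be told apart in these bulk samples.

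**Figure D1:**
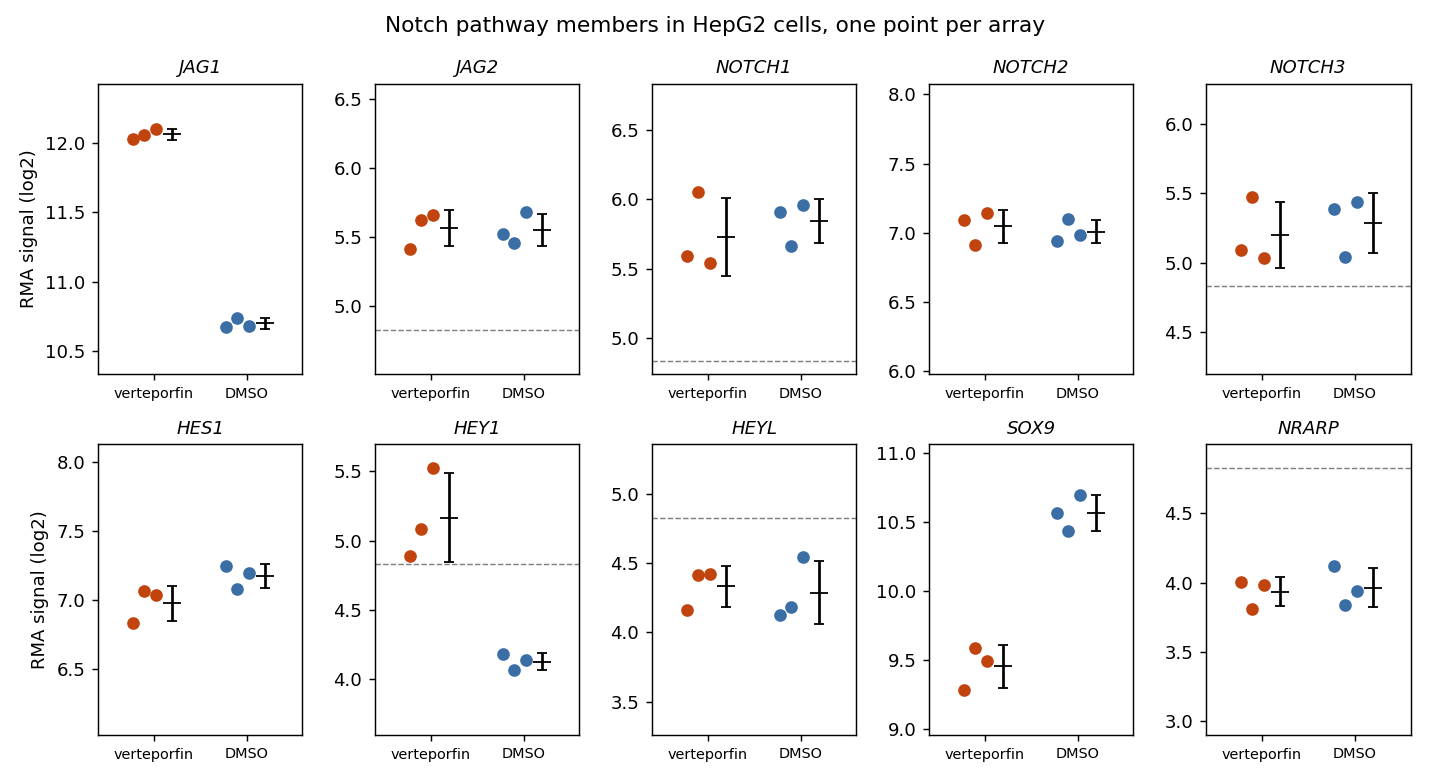
RMA log2 signal of the 10 members, with a point for each of 3 verteporfin arrays (left) and 3 DMSO arrays (right) and the mean with its SD as a bar beside them. Every panel spans the same log2 range, and the dashed line is the median signal of 4.83 where it falls in the panel. JAG1 and HEY1 sit higher and SOX9 lower on the verteporfin arrays with wide gaps, and the HES1 groups are separated by a narrow one.

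JAG1 encodes Jagged-1, the ligand whose mutations cause Alagille syndrome, with its paucity of bile ducts. Its signal was 12.03, 12.06 and 12.11 on the verteporfin arrays, against 10.67, 10.74 and 10.68 on the DMSO arrays. Every verteporfin array lay above every DMSO array, and the arrays of a group differed by little (SD 0.038 with verteporfin and 0.037 with DMSO, n = 3 each). JAG1 was 2.58-fold higher, a log2 difference of 1.37 ± 0.06 (SE), with a 95% interval of 1.23 to 1.51 and a limma adjusted p of 4.12e-06. It held place 324 from the top among the 24241 log2 differences.

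JAG2, the second Jagged ligand, had signals of 5.42, 5.62 and 5.66 on the verteporfin arrays, against 5.52, 5.46 and 5.68 on the DMSO arrays. The groups overlapped, and the log2 difference of 0.013 ± 0.09 (SE) did not pass (adjusted p = 0.951, limma). Its 95% interval, -0.20 to 0.23, lay wholly below that of JAG1.

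The 3 receptors, which are both surface receptor and precursor of the nuclear activator, did not pass. NOTCH2, the receptor tied to bile duct formation together with JAG1, had signals of 7.09, 6.91 and 7.14 on the verteporfin arrays, against 6.94, 7.10 and 6.99 on the DMSO arrays. The groups overlapped, with a log2 difference of 0.039 and a 95% interval of -0.15 to 0.23 (adjusted p = 0.822, limma).

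NOTCH1, the receptor first known from T cell leukaemia, had signals of 5.59, 6.06 and 5.54 on the verteporfin arrays, against 5.91, 5.67 and 5.96 on the DMSO arrays. NOTCH3, best known from vascular smooth muscle, had 5.09, 5.47 and 5.03 on the verteporfin arrays, against 5.39, 5.04 and 5.44 on the DMSO arrays. In both genes replicate 2 was the highest verteporfin array and replicate 2 the lowest DMSO array, and the groups overlapped. These 2 receptors had the widest spread over the verteporfin arrays after HEY1 (SD 0.28 for NOTCH1 and 0.24 for NOTCH3). The log2 difference was -0.11 for NOTCH1, with a 95% interval of -0.45 to 0.23 (adjusted p = 0.682, limma). It was -0.088 for NOTCH3, with an interval of -0.43 to 0.25 (adjusted p = 0.763). With single arrays left out it ranged from -0.28 to -0.019 for NOTCH1 and from -0.23 to -0.0050 for NOTCH3, the lowest value of each without verteporfin replicate 2. Changes of the receptors within these intervals remain compatible with the data of 3 arrays a group.

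**Figure D2:**
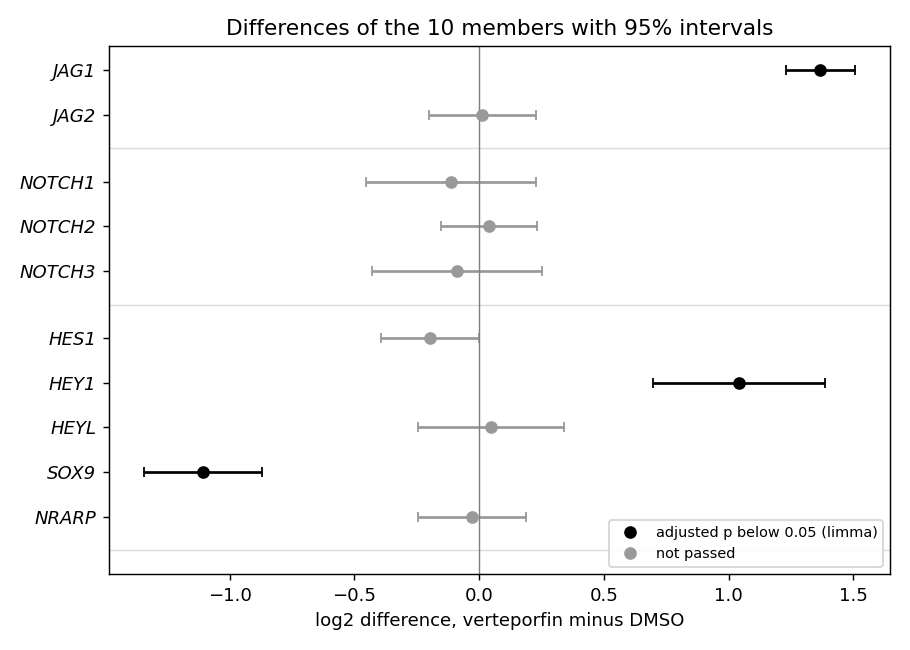
Log2 difference (verteporfin minus DMSO) of each member with its 95% interval from limma, from top to bottom for ligands, receptors, and effectors with feedback genes. Black points passed at an adjusted p of 0.05 and grey points did not. JAG1 (1.37), HEY1 (1.04) and SOX9 (-1.11) stand away from 0, and the upper end of the HES1 interval touches 0.

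HES1, a repressor of the basic helix-loop-helix family and the most widely used readout of Notch activity, had signals of 6.83, 7.06 and 7.03 on the verteporfin arrays, against 7.24, 7.08 and 7.19 on the DMSO arrays. The groups did not overlap, but verteporfin replicate 2 (7.06) and DMSO replicate 2 (7.08) nearly met, and groups that did not overlap were seen in 39.1% of all genes. The log2 difference of -0.20 ± 0.08 (SE) had an unadjusted p of 0.0498 and did not pass after adjustment over all genes (adjusted p = 0.139, limma). Its 95% interval ran from -0.39 to -0.00022. HES1 passed in 0 of 11 alternative fits, with adjusted p between 0.0933 and 0.340.

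HEY1, a repressor related to HES1, had signals of 4.89, 5.08 and 5.52 on the verteporfin arrays, against 4.18, 4.06 and 4.13 on the DMSO arrays. All verteporfin arrays lay above all DMSO arrays, and they were spread more widely (SD 0.32 with verteporfin and 0.060 with DMSO, n = 3 each), with verteporfin replicate 3 the highest. The measured signal was 2.06-fold higher, a log2 difference of 1.04 ± 0.15 (SE), with a 95% interval of 0.70 to 1.39 (adjusted p = 0.00112, limma). The DMSO mean of 4.13 was below the median signal and the verteporfin mean of 5.17 just above it, so this is a difference of measured signal and not the size of the change in transcript. Without verteporfin replicate 3 the difference was 0.86.

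HEYL, the third gene of the HEY family, had signals of 4.16, 4.41 and 4.42 on the verteporfin arrays, against 4.13, 4.19 and 4.55 on the DMSO arrays. NRARP, whose small ankyrin-repeat protein binds the nuclear Notch complex and dampens it, had 4.01, 3.81 and 3.98 on the verteporfin arrays, against 4.12, 3.84 and 3.94 on the DMSO arrays. Both genes lay below the median signal on every array, with overlapping groups. The log2 differences of 0.047 for HEYL (adjusted p = 0.866, limma) and -0.030 for NRARP (adjusted p = 0.885) did not pass. The 95% intervals were -0.25 to 0.34 for HEYL and -0.25 to 0.19 for NRARP. At this brightness background was not separated from transcript.

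SOX9, which encodes a transcription factor of bile duct cells and liver progenitors, had signals of 9.29, 9.59 and 9.49 on the verteporfin arrays, against 10.57, 10.44 and 10.69 on the DMSO arrays. Every verteporfin array lay below every DMSO array. SOX9 was 2.15-fold lower, a log2 difference of -1.11 ± 0.10 (SE), with a 95% interval of -1.34 to -0.87 (adjusted p = 0.000110, limma). It held place 593 from the bottom of the 24241 differences, while HEY1 held place 601 from the top.

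**Figure D3:**
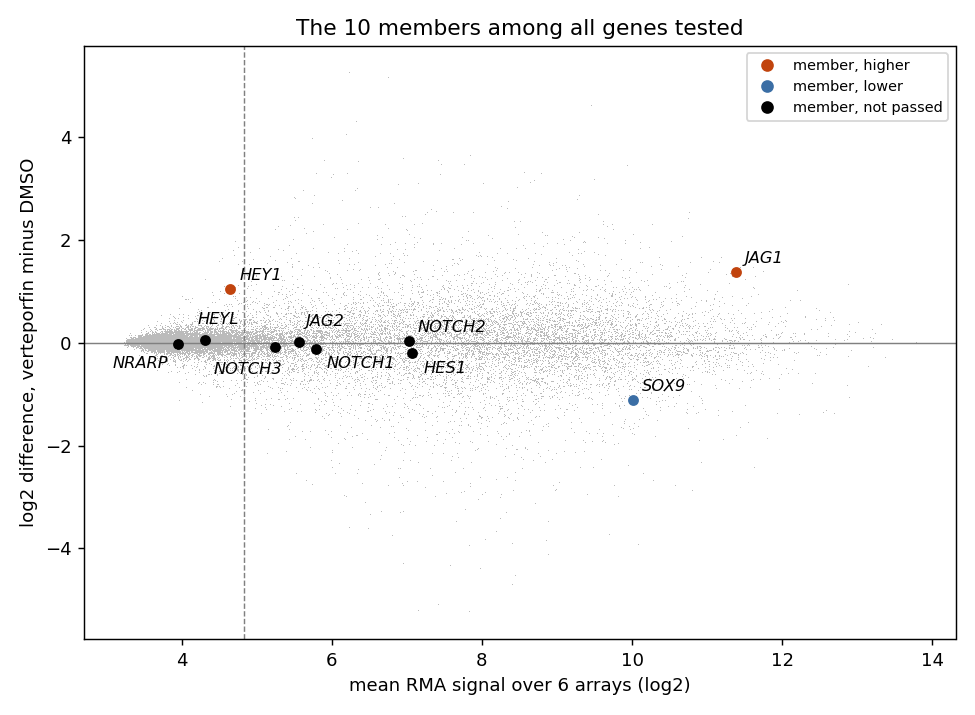
Log2 difference (verteporfin minus DMSO) of all 24241 genes against their mean log2 signal over 6 arrays, with the 10 members marked. The dashed line is the median signal of 4.83. JAG1 and SOX9 are bright and lie on opposite sides of 0, HEY1 lies close to the dashed line, and NRARP and HEYL sit in the dim, narrow part at the left.

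Around the 10 members, 67 other Notch pathway genes in 7 lists were looked up and 63 were measured. Of these, 14 rose, 10 fell and 39 did not pass (38.1% called, against 28.5% of all genes), with a median difference of -0.0011. The 46 genes above the median signal in both groups make up most of the lists. Among all genes tested, 51.9% of those with a mean at or above the median signal were called, against 4.59% of those below it.

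Of the 6 genes in the list of other ligands with NOTCH4, 1 fell and 0 rose (16.7% called, against 28.5% of all genes). DLK1, a Delta-like protein that lacks the domain used to activate receptors and marks hepatoblasts, averaged 9.69 with verteporfin and 10.79 with DMSO, a difference of -1.10 ± 0.08 (SE, adjusted p = 3.98e-05, limma). DLL1, DLL3 and DLL4, the Delta-like ligands proper, were below the median signal in both groups.

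Of 8 cleavage genes measured, 2 rose, 1 fell and 5 did not pass (37.5% called, against 28.5% of all genes). ADAM17, also called TACE, a shedding protease that can cut Notch receptors, averaged 10.32 with verteporfin and 8.83 with DMSO, a difference of 1.49 ± 0.09 (SE, adjusted p = 1.95e-05, limma). ADAM10, the protease that makes the ligand-driven cut, changed the other way, with means of 10.18 with verteporfin and 10.71 with DMSO (-0.53 ± 0.08, adjusted p = 0.00187). PSENEN, a subunit of gamma-secretase, rose by 0.82 ± 0.06 (adjusted p = 4.63e-05), and its partner subunits NCSTN, APH1A and PSEN2 had differences of -0.18, 0.049 and -0.071, which did not pass.

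Of the 5 glycosylation genes, 2 fell and 1 rose (60% called, against 28.5% of all genes). POFUT1, which adds the O-fucose that receptors need for ligand binding, averaged 8.68 with verteporfin and 9.34 with DMSO (-0.66 ± 0.07 SE, adjusted p = 0.000174, limma). POGLUT1, which adds O-glucose, differed by -0.46 ± 0.11, a call lost without verteporfin replicate 1 or DMSO replicate 1 or 2 (adjusted p up to 0.0643). RFNG, of the Fringe family that extends the O-fucose, differed by 0.37 ± 0.11, and its call was lost in 6 of 11 alternative fits, among them those without verteporfin replicate 1 or 2 or DMSO replicate 1 or 2 (adjusted p up to 0.132).

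Of 14 genes for ligand uptake and receptor turnover, 5 rose, 1 fell and 8 did not pass. The share called was 42.9%, against 28.5% of all genes and 51.9% of those at or above the median signal, where 13 of the 14 lie. NUMB, an adaptor known to restrain Notch by steering the receptor to degradation, averaged 10.37 with verteporfin and 9.44 with DMSO (0.93 ± 0.07 SE, adjusted p = 4.75e-05, limma). ITCH, a ubiquitin ligase that works with NUMB on the receptor, averaged 11.69 with verteporfin and 10.97 with DMSO (0.71 ± 0.06, adjusted p = 8.91e-05). FBXW7, which marks the nuclear receptor fragment for destruction, rose by 0.49 ± 0.09 (adjusted p = 0.00435). MIB1, the ubiquitin ligase that ligands need to signal, rose by 0.50 ± 0.06 (adjusted p = 0.000542). DTX4, of the Deltex family, differed by -0.53 ± 0.13, a call lost without DMSO replicate 3 (adjusted p = 0.0633).

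Of 9 genes for the nuclear complex, 2 rose, 2 fell and 5 did not pass (44.4% called, against 28.5% of all genes). RBPJ, the DNA-binding core of the complex, averaged 9.70 with verteporfin and 9.84 with DMSO and did not pass (-0.15 ± 0.07 SE, adjusted p = 0.195, limma). MAML2, a Mastermind coactivator, averaged 5.48 with verteporfin and 6.77 with DMSO (-1.29 ± 0.15, adjusted p = 0.000438), while its relatives MAML1 (0.12) and MAML3 (-0.013) did not pass. The acetyltransferase KAT2A fell by 0.72 ± 0.10 (adjusted p = 0.00101), and SNW1, also called SKIP, rose by 0.29 ± 0.06 (adjusted p = 0.00796). The acetyltransferase CREBBP differed by 0.29 ± 0.09, with its call lost in 6 of 11 alternative fits, among them those without verteporfin replicate 1 or 3 or any DMSO array (adjusted p up to 0.134).

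Of 12 corepressor genes measured, 3 fell, 1 rose and 8 did not pass (33.3% called, against 28.5% of all genes). The 3 that fell encode histone deacetylases: HDAC1 by 0.66 ± 0.10 (SE, adjusted p = 0.00146, limma), HDAC3 by 0.61 ± 0.08 (adjusted p = 0.000649) and HDAC2 by 0.34 ± 0.06 (adjusted p = 0.00507). These enzymes serve many repressor complexes besides that of RBPJ. TLE3, a Groucho family corepressor, differed by 0.50 ± 0.12, a call lost without DMSO replicate 1 or 2 (adjusted p up to 0.0604).

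**Figure D4:**
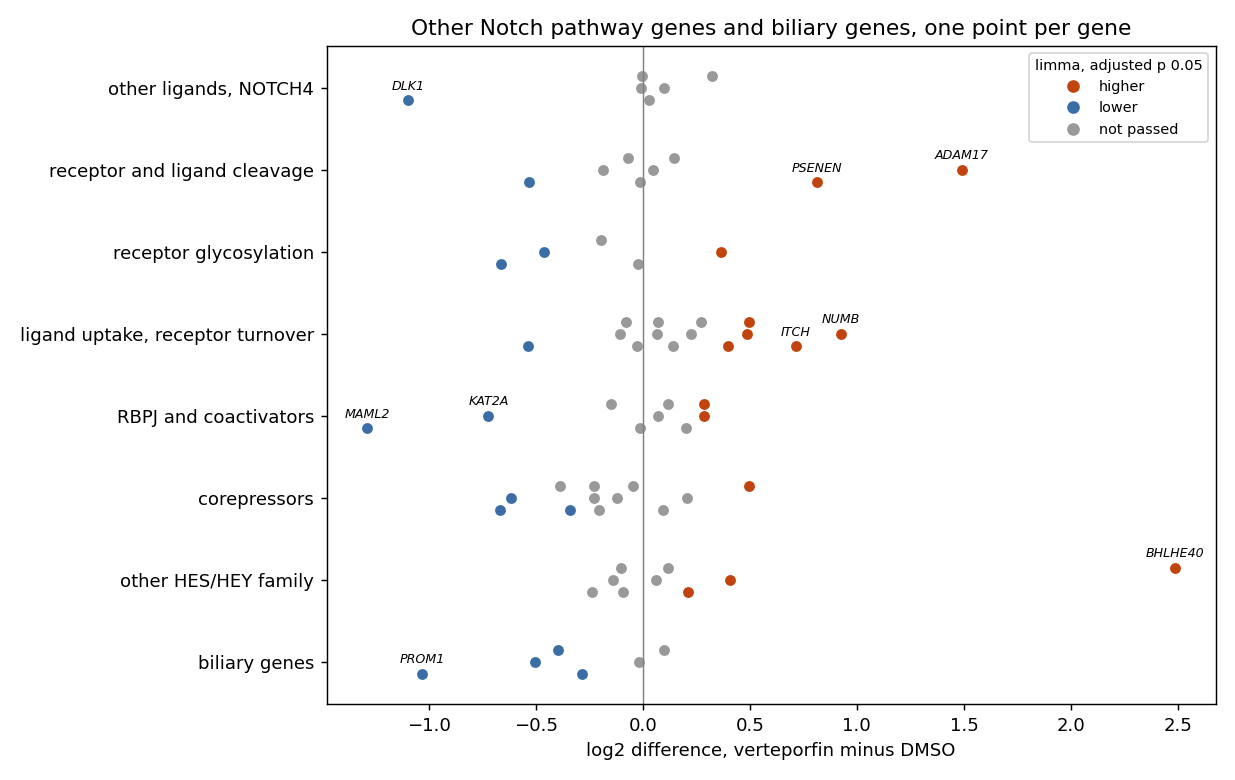
Log2 difference (verteporfin minus DMSO) of each other pathway gene and biliary gene, with a point per gene and a row per list. Orange points passed as higher, blue points as lower and grey points did not pass, and called genes past 0.7 in size are named. BHLHE40 (2.49) and ADAM17 (1.49) lie farthest to the right and MAML2 (-1.29) and DLK1 (-1.10) farthest to the left.

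Of 9 further genes of the HES and HEY family and their BHLHE relatives, 3 rose and 0 fell (33.3% called, against 28.5% of all genes). This balance changed with the fit. With genes under the median signal dropped, 1 was called higher and 1 lower, and with array weights or without verteporfin replicate 2, 2 were called higher and 1 lower. BHLHE40, also called DEC1, a stress- and clock-linked repressor of the same wider protein family that is not a defining Notch target, averaged 10.79 with verteporfin and 8.30 with DMSO (2.49 ± 0.09 SE, adjusted p = 1.93e-06, limma). Its relative BHLHE41 differed by 0.41 ± 0.10 from a mean of 4.73 with verteporfin and 4.33 with DMSO, both below the median signal, and its call was lost without verteporfin replicate 3 or DMSO replicate 1 (adjusted p up to 0.0555). HES5, a classical Notch target in neural cells, was also below the median in both groups, with means of 4.16 with verteporfin and 3.95 with DMSO. Its difference of 0.21 ± 0.07 had an adjusted p of 0.0487. The call was lost in 9 of the 10 alternative fits that held it (adjusted p up to 0.146). These were each fit without 1 of the 6 arrays, trend and robust moderation, the replicate block and array weights. HES6, which is known to oppose HES1, was the gene called lower with genes under the median signal dropped, with array weights or without verteporfin replicate 2. It averaged 6.21 with verteporfin and 6.45 with DMSO, a difference of -0.24 ± 0.08 that did not pass in the comparison of all arrays and genes (adjusted p = 0.0578) and passed in 3 of 11 alternative fits (adjusted p between 0.0117 and 0.172). HEY2 and HES4 had differences of 0.12 and 0.063, which did not pass.

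Since SOX9 marks bile duct cells, 8 other biliary or progenitor genes were looked up and 6 were measured, of which 4 fell and 0 rose (66.7% called, against 28.5% of all genes and 51.9% of those at or above the median signal, where 4 of the 6 lie). With the replicate block, and without verteporfin replicate 1 or DMSO replicate 1 or 3, 2 of them were called lower. The sum of their linear signals was 8958 to 10439 on the verteporfin arrays, against 12034 to 12873 on the DMSO arrays. SPP1 alone made up 67.3% to 70.1% of this sum on the verteporfin arrays and 65.3% to 67.0% on the DMSO arrays, and without it the sum was 2933 to 3235 with verteporfin and 3974 to 4468 with DMSO. PROM1, which encodes the progenitor surface protein CD133, averaged 6.66 with verteporfin and 7.69 with DMSO (-1.03 ± 0.09 SE, adjusted p = 7.62e-05, limma). EPCAM, an epithelial adhesion protein, averaged 10.89 with verteporfin and 11.28 with DMSO (-0.40 ± 0.06, adjusted p = 0.00182). The keratin KRT19 differed by -0.50 ± 0.15 and osteopontin, SPP1, by -0.28 ± 0.09, and each of these calls was lost in 5 of 11 alternative fits. For KRT19 these included the fits without verteporfin replicate 1 or 3 or DMSO replicate 1 or 3 (adjusted p up to 0.127). For SPP1 they included those without verteporfin replicate 1 or any DMSO array (adjusted p up to 0.117). KRT7 and CFTR, below the median signal in both groups, had differences of -0.019 and 0.10, which did not pass. Of the 8 hepatocyte markers given above, 7 also passed as lower, and SERPINA1 did not (-0.24, adjusted p = 0.0741, limma). The part of these markers in the SOX9 result was not tested.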

How the data were processed

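The authors deposited log2 signals per probe set. The tool was RMA, per the submitters' processing notes. This method removes background, gives all arrays 1 common distribution and combines the probes of a probe set. A range of 3.17 to 13.8 fits the log2 scale. Sorted values were the same on all 6 arrays, so a shift common to all transcripts would be invisible. For the RMA version, array model and genome build, nothing is given in the sources used here. Of 25582 probe sets, 24244 had 1 symbol in the platform annotation, 0 had several and 1338 had none and were left out. For 3 symbols with several probe sets the brightest was kept, which left 24241 genes. Groups and replicate numbers came from the sample titles. Verteporfin minus DMSO was tested over all genes with limma 3.58.1 in R 4.3.3 (lmFit, eBayes), with two-sided p-values adjusted by Benjamini-Hochberg at 0.05. SE is the moderated standard error, and intervals are at 95%. The steps were tested on simulated data. The number of arrays limits the precision. A permutation test of 3 against 3 arrays was not used.

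All 10 members are named. Of each further list, all genes that passed are named up to 5, then those with the smallest adjusted p; DLL1, DLL3, DLL4, NCSTN, APH1A, PSEN2, RBPJ, MAML1, MAML3, HEY2, HES4, HES6, KRT7, CFTR and the marker genes are named outside this rule, after their values were seen. Members and lists were chosen with earlier results of these data known. Alternatives were moderation with trend and robust estimation, genes below the median signal left out, probe sets averaged, a replicate block, array weights, and each array left out.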

Additional observations from a re-analysis of the deposited data

How the results depend on the processing

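JAG1 and SOX9 passed in the same direction in all 11 alternative fits, with log2 differences of 1.35 to 1.39 and -1.17 to -1.02. HEY1 passed in the 10 fits that held it (0.86 to 1.18). When genes with a mean under the median signal were dropped, HEY1 was not tested and 1 member was called higher in place of 2. The other 7 members passed in 0 of the fits. The values of NOTCH1 (-0.28 to -0.019) and NOTCH3 (-0.23 to -0.0050) moved with single arrays left out but kept their sign. The sign of 4 of the 7 turned with single arrays left out: JAG2 ranged from -0.035 to 0.088, NOTCH2 from -0.0072 to 0.11, HEYL from -0.033 to 0.18 and NRARP from -0.094 to 0.047. Of 176 counts of called genes in the other lists, 144 stayed within 1.5 times, 24 fell below that and 8 rose above it. Whether arrays with the same replicate number were paired is not stated in the labels. Deviations of same-numbered arrays from their group means correlated at -0.016, -0.11 and -0.012, and 0 of 6 arrays correlated best with its own number. No shared shift was seen, but deviations from means of 3 arrays cannot settle whether the samples were paired. With the replicate block 2 members were called higher and 1 lower, and 3209 and 3150 of all genes, against 3460 and 3456 without it. Dim signal limits HEY1 in DMSO, and HEYL and NRARP in both groups.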
